A study of Homo sapiens with 12 samples.

Results

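The mRNA levels of 10 enzymes of serine, asparagine, cysteine and one-carbon metabolism were followed in HEK293T, a widely used transformed line of human embryonic kidney cells. The enzymes were chosen by gene symbol: ASNS, CTH, CBS, PHGDH, PSAT1, PSPH, SHMT2, MTHFD2, ALDH1L2 and PCK2. The choice was made with earlier results of these data known. Of these 10 genes, 9 had transcripts that could be matched to the annotation, among 34318 matched genes in all. PCK2, the mitochondrial phosphoenolpyruvate carboxykinase, had no matched transcript and is not analysed here.

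The 12 libraries fell into 4 groups of 3. In one experiment the cells were transfected with a control siRNA (siControl) or with an siRNA against POLR3A (siPOLR3A), using the lipid reagent RNAiMax, for 2 days. POLR3A encodes the catalytic subunit of RNA polymerase III, which transcribes transfer RNAs, 5S ribosomal RNA and other short RNAs. In the other experiment the cells received 0.1% DMSO, the vehicle, or 25 µM ML60218, a small-molecule inhibitor of that polymerase, for 4 hours. All groups are 1 cell line, each agent was used at 1 duration, and the sequence and number of the siRNAs are not given in the sources used here. Nothing in the labels says that replicates came from separate cultures, so the tests measure the spread between these libraries, which may be technical. The experiments differ in agent, vehicle and duration, and these cannot be told apart in a difference between them.

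Libraries held 37008325 to 49479476 estimated reads. POLR3A mRNA averaged 90.8 ± 3.56 CPM (reads scaled to library size; mean ± SD, n = 3) in siControl and 17.6 ± 2.65 in siPOLR3A, a log2 fold change of −2.36. That sum covers 4 matched transcripts, and 15 unmatched ones lie between them. In TPM (reads per transcript length, scaled to a fixed total), siControl averaged 15.4 without these and 27.0 with them, and siPOLR3A 3.38 and 6.81. Of 10 kidney epithelial or HEK293T markers, 9 had a median above 1 TPM, and PAX8 stood at 0.0203. Neuronal markers passed the same level in 3 of 4 cases, blood markers in 0 of 3, endothelial in 0 of 2, fibroblast in 1 of 3 and liver in 0 of 2.

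Serine is made from the glycolytic intermediate 3-phosphoglycerate by PHGDH, PSAT1 and PSPH in turn. SHMT2 then splits serine in mitochondria into glycine and a folate-bound one-carbon unit, MTHFD2 oxidises that unit, and ALDH1L2 can release it as carbon dioxide. ASNS makes asparagine from aspartate with glutamine as nitrogen donor, while CBS and CTH carry sulfur from homocysteine through cystathionine to cysteine. Several of these genes are textbook targets of ATF4, a transcription factor made when cells sense amino acid shortage, which binds C/EBP-ATF response elements.

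To show what such an element looks like at one of the enzymes, the promoter windows were searched. The motif was TGATGNAAN on both strands, from 250 bases before to 50 after the annotated start (RefSeq, GRCh38.p14). A match was present in 1268 of 35116 promoter windows (3.61%). Of the 10 enzymes, 7 had a window in that table and 1 of these, ASNS, held the motif, in 1 of its 2 windows. The motif lay on the gene's own strand, 68 bases before the RefSeq start of that window, at chr7:97872458-97872486 (minus strand) with 10 flanking bases on each side. It is shown with the motif in capitals:
ASNS: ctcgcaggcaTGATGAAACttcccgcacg
The match is a run of letters in a window and was not tested as a binding site in these libraries. By GENCODE the ASNS gene reaches to 97872542, so the stretch lies inside that span and not before it.

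Levels were first compared between enzymes within a group by TPM summed over each gene's transcripts. PHGDH (ENSG00000092621; GRCh38 chromosome 1, 119648411 to 119744226, plus strand) was the most abundant in siControl at 319.6 ± 8.31 TPM. CBS (ENSG00000160200; chromosome 21, 43053191 to 43076943, minus strand) followed at 249.6 ± 4.61 TPM. PSAT1 (ENSG00000135069; chromosome 9, 78297143 to 78330093, plus strand) stood at 183.7 ± 4.73 TPM. The first and second steps of serine synthesis were thus among the 3 highest levels, and the last step was far below them. PSPH (ENSG00000146733; chromosome 7, 56011051 to 56051604, minus strand) reached 31.9 ± 2.56 TPM.

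The mitochondrial enzymes and ASNS lay between these levels in siControl. SHMT2 (ENSG00000182199; chromosome 12, 57229327 to 57234935, plus strand) was measured at 130.9 ± 2.59 TPM. MTHFD2 (ENSG00000065911; chromosome 2, 74198562 to 74217565, plus strand) was measured at 123.5 ± 1.80 TPM. ASNS (ENSG00000070669; chromosome 7, 97852118 to 97872542, minus strand) was close behind at 114.2 ± 3.53 TPM. Of the MTHFD2 sum, only 25.6% (31.7 ± 1.36 TPM) was in transcripts annotated as protein coding. Transcripts annotated for nonsense-mediated decay held 45.3% of it, and processed transcripts 29.1%. The lowest pair did not differ beyond its spread: CTH (ENSG00000116761; chromosome 1, 70411218 to 70439851, plus strand) at 18.4 ± 1.61 and ALDH1L2 (ENSG00000136010; chromosome 12, 105019784 to 105084577, minus strand) at 17.3 ± 1.69 TPM, with overlapping libraries. All other neighbours in the siControl order were free of overlap.

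The order changed at a few places. In siPOLR3A, CBS at 263.5 ± 0.958 TPM stood above PHGDH at 251.6 ± 7.35, and ASNS at 126.4 ± 6.19 stood above MTHFD2 at 100 ± 1.40, without overlap in either pair. These orders rest on all transcript classes. In protein-coding transcripts alone, CBS was below PHGDH in siPOLR3A, at 110.2 ± 3.35 against 170.4 ± 4.39 TPM. In siControl, CBS was then below PSAT1, at 124.3 ± 1.99 against 183.7 ± 4.73 TPM. Coding ASNS was above coding MTHFD2 already in siControl, at 92.05 ± 5.47 against 31.7 ± 1.36 TPM. In siPOLR3A this pair was at 97.0 ± 2.82 and 28.2 ± 1.03 TPM. In DMSO the order was that of siControl, with ASNS at 81.6 ± 3.52 TPM and CTH at 12.6 ± 0.530. In ML60218, ASNS moved up to the fourth place at 209.6 ± 12.9 TPM, above SHMT2 at 176.7 ± 15.6 and MTHFD2 at 161.4 ± 12.3, whose libraries overlapped each other. CBS at 262.1 ± 4.37 and PSAT1 at 249.8 ± 18.2 TPM overlapped as well. The plot of TPM by gene shows these positions.

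**Figure D1:**
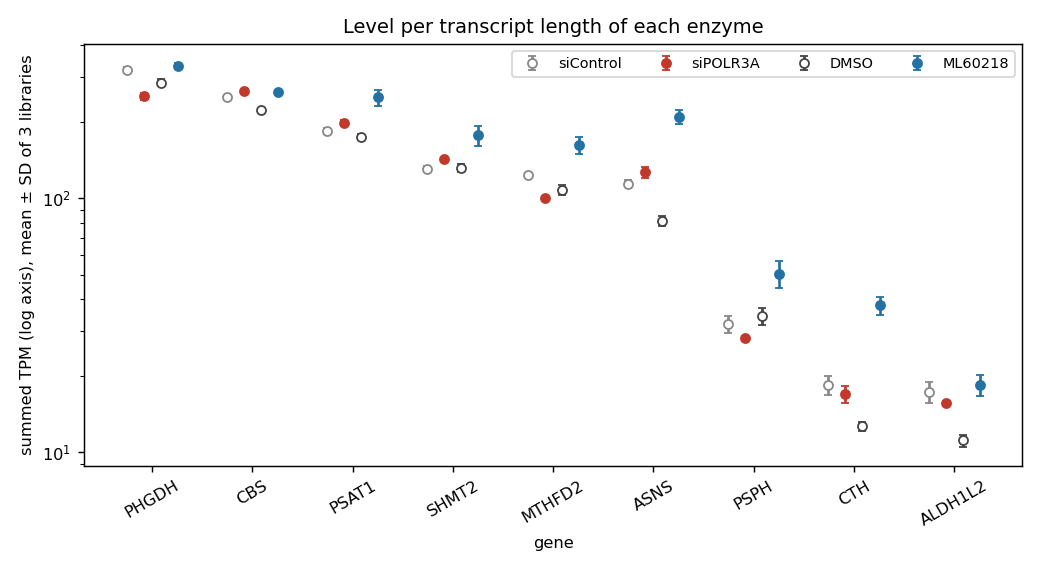
Summed TPM of 9 enzymes on a log axis, as the mean ± SD of 3 libraries in each of the 4 groups. PHGDH, CBS and PSAT1 are highest in every group, and ASNS at 209.6 TPM in ML60218 stands well above its 81.6 TPM in DMSO.

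The ML60218 comparison asked which of these mRNAs differed from DMSO after 4 hours. Of the 9 enzymes, 7 were called higher, 0 lower and 2 not at all. Of 15461 tested genes, 39% were called, 18.1% higher and 20.9% lower. The largest were CTH, at 2.54-fold, and ASNS, at 2.02-fold, which makes 2 of 9 enzymes higher by at least 1.5-fold beside 3.84% of all genes. ALDH1L2, MTHFD2 and PSAT1 rose by smaller amounts, PSPH and SHMT2 least, and CBS and PHGDH were not called. The median log2 fold change was 0.38 over the enzymes and 0.0054 over all tested genes. Because the enzymes were chosen with earlier results of these data known, these shares and medians are descriptions only. In bulk RNA, more transcript per cell and more cells with the transcript cannot be told apart.

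Values by library are in CPM, scaled with the trimmed mean of M values within each experiment, and are not compared between experiments. Differences were tested with edgeR's quasi-likelihood test with Benjamini-Hochberg adjustment over all tested genes, and a gene was called at an adjusted p under 0.05. In serine synthesis, PHGDH, the committing dehydrogenase, was measured at 301, 301 and 297 CPM in DMSO and 317, 319 and 299 in ML60218. The lowest ML60218 library lay inside the DMSO range, and the log2 fold change was 0.058 (SE 0.034, edgeR adjusted p 0.203). PSAT1, the aminotransferase of the second step, stood at 270.3, 273 and 269 CPM in DMSO and 341, 372 and 348 in ML60218. All ML60218 libraries were above all DMSO libraries, with a log2 fold change of 0.38 (SE 0.037, edgeR adjusted p 0.000165). PSPH, the phosphatase of the last step, gave 40.04, 37.5 and 38.2 CPM against 44.1, 50.2 and 44.5. The groups were again apart, by a log2 fold change of 0.26 (SE 0.057, edgeR adjusted p 0.00577).

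In the mitochondrial one-carbon branch all 3 enzymes rose. SHMT2 was measured at 174, 167 and 171 CPM in DMSO and 187, 193 and 194 in ML60218, a log2 fold change of 0.16 (SE 0.032, edgeR adjusted p 0.0033). MTHFD2 gave 169.6, 179 and 171 CPM in DMSO and 224, 236 and 231 in ML60218, a log2 fold change of 0.41 (SE 0.034, edgeR adjusted p 0.000107). ALDH1L2 gave 63.7, 65.1 and 65.3 CPM in DMSO and 92.5, 98.0 and 97.4 in ML60218, a log2 fold change of 0.57 (SE 0.037, edgeR adjusted p 3.06e-05). The groups did not overlap for any of these 3 genes, and SHMT2 changed least.

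ASNS, the only enzyme of the group that makes asparagine, was measured at 118, 117 and 123 CPM in DMSO and 226, 252 and 242 in ML60218. The groups were far apart, with a log2 fold change of 1.01 (SE 0.043, edgeR adjusted p 1.51e-06), the 239th largest rise of 15461 genes. In the cysteine branch the steps differed. CBS, which joins serine and homocysteine, gave 286, 289 and 294 CPM in DMSO and 299, 293 and 283 in ML60218, and its log2 fold change was 0.0085 (SE 0.032, edgeR adjusted p 0.858). CTH, which releases cysteine from cystathionine, stood at 16.4, 16.7 and 16.4 CPM in DMSO and 38.8, 43.2 and 43.9 in ML60218. Its log2 fold change of 1.35 (SE 0.058, edgeR adjusted p 1.51e-06) was the largest of the 9 and the 96th largest of all genes. Counting all steps, 7 enzymes were higher and 0 lower without overlap between the groups, where 24.8% and 27% of all genes were.

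PHGDH and CBS depended on the processing. PHGDH was called higher under 6 of its 19 alternatives (edgeR, DESeq2 or limma adjusted p 0.00702 to 0.547), among them the one without ML60218 replicate 3, at 0.088. CBS ranged from −0.14 with transcripts annotated as protein coding alone, where it was called lower, to 0.23 on log2(TPM + 1), where it was called higher and the median of all genes was itself 0.11.

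**Figure D2:**
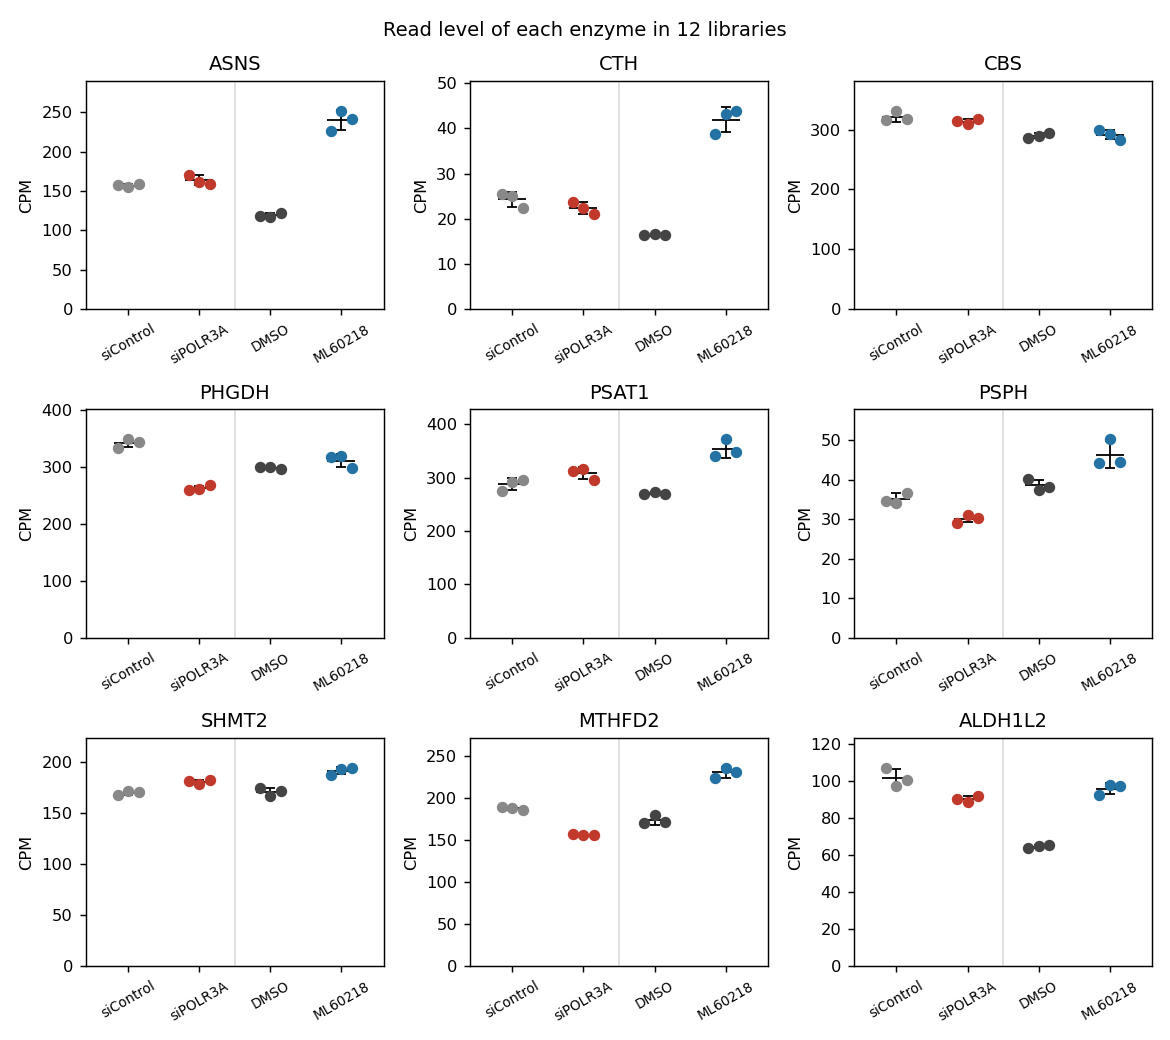
CPM of 9 enzymes in each of 12 libraries (points), with the mean and SD of each group (black bars); every axis starts at 0. The ML60218 points of ASNS (226 to 252 CPM) and CTH (38.8 to 43.9 CPM) lie above the DMSO points of those genes, and the siPOLR3A points of PHGDH (260.5 to 269 CPM) lie below those of siControl.

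The siRNA comparison asked which of the enzymes differed 2 days after the POLR3A siRNA. PHGDH, PSPH, MTHFD2 and ALDH1L2 fell, PSAT1 and SHMT2 rose slightly, and ASNS, CTH and CBS were not called. This is 4 lower and 2 higher of 9, where 56.6% of 15404 tested genes were called, 29.2% lower and 27.4% higher, so many genes moved and a call alone says little about these enzymes. The median log2 fold change was −0.12 over the enzymes, with a range of −0.38 to 0.10, and 0.0054 over all genes. No enzyme changed by as much as 1.5-fold (0 of 9 higher by that much, beside 5.88% of all genes).

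The steps of serine synthesis moved in different directions. PHGDH was measured at 335, 349 and 344 CPM in siControl and 260.5, 261 and 269 in siPOLR3A, without overlap. Its log2 fold change of −0.38 (SE 0.024, edgeR adjusted p 1.13e-08) was the largest fall of the 9. PSAT1 gave 275, 292 and 297 CPM in siControl and 312, 317 and 297 in siPOLR3A, so that the nearest libraries of the groups almost touched. The log2 fold change was 0.10 (SE 0.033, edgeR adjusted p 0.021). PSPH gave 34.6, 34.0 and 36.7 CPM in siControl and 29.1, 31.0 and 30.4 in siPOLR3A, a log2 fold change of −0.22 (SE 0.045, edgeR adjusted p 0.000871). The first and last steps were therefore lower and the middle step slightly higher.

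The mitochondrial branch was also divided. SHMT2 stood at 167, 171 and 170.1 CPM in siControl and 181, 178 and 182 in siPOLR3A, a log2 fold change of 0.09 (SE 0.024, edgeR adjusted p 0.00457). MTHFD2 stood at 189, 188 and 186 CPM in siControl and 157, 156 and 156 in siPOLR3A, a log2 fold change of −0.26 (SE 0.023, edgeR adjusted p 2.94e-07). ALDH1L2 stood at 107, 97.3 and 101 CPM in siControl and 90.3, 88.6 and 91.8 in siPOLR3A, a log2 fold change of −0.17 (SE 0.035, edgeR adjusted p 0.000775). Groups did not overlap for any of the 3.

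Of the other enzymes, ASNS gave 157, 155 and 158 CPM in siControl and 171, 161 and 159 in siPOLR3A. The siPOLR3A libraries were all higher, but by little, with a log2 fold change of 0.06 (SE 0.029, edgeR adjusted p 0.0894). CTH gave 25.5, 25.1 and 22.5 CPM in siControl and 23.8, 22.4 and 20.97 in siPOLR3A, which overlapped, with a log2 fold change of −0.12 (SE 0.062, edgeR adjusted p 0.112). CBS gave 315, 331 and 318 CPM in siControl and 314, 309 and 317 in siPOLR3A, with a log2 fold change of −0.04 (SE 0.025, edgeR adjusted p 0.224). The enzymes whose groups did not overlap were 3 higher and 4 lower, where 31.1% and 32.4% of all genes were free of overlap in those directions.

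The small rises and values near zero were the least stable. PSAT1 was not called without siPOLR3A replicate 1, at 0.09, or replicate 2, at 0.08, or with the length offset, at 0.09 (edgeR adjusted p over its alternatives 0.000982 to 0.0934), SHMT2 was at 0.02 once a GC and length trend was removed, ALDH1L2 was at −0.13 and not called on log2(TPM + 1), and CTH was called lower without siControl replicate 3, at −0.18. ASNS was called higher under 6 of its 19 alternatives, at up to 0.15, and CBS was called lower at −0.19 with protein-coding transcripts alone and was at 0.08 on log2(TPM + 1).

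**Figure D3:**
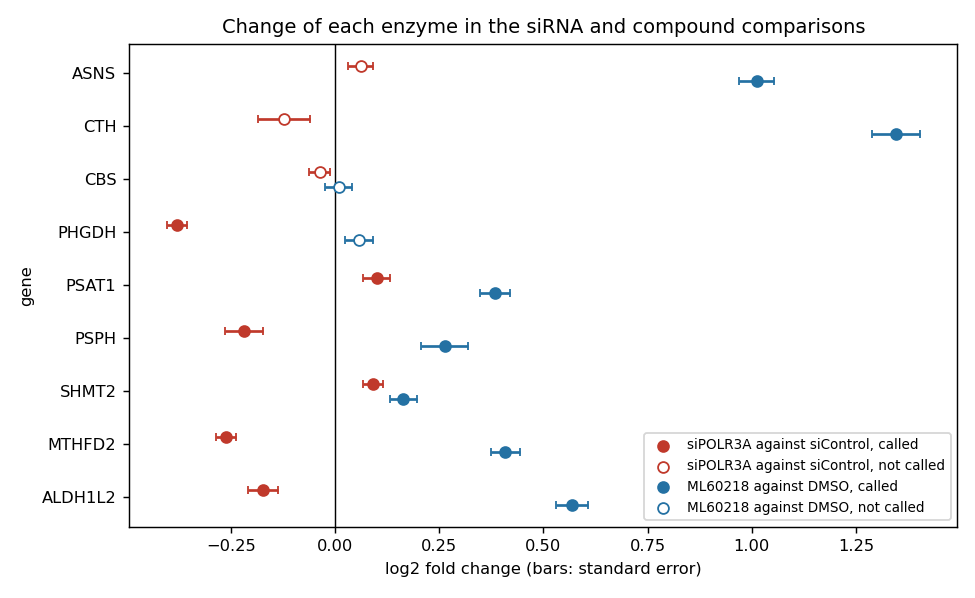
Log2 fold change of 9 enzymes with its standard error in the siRNA comparison (red) and the compound comparison (blue); filled points were called at an adjusted p under 0.05. The blue points of ASNS (1.01) and CTH (1.35) lie farthest to the right, and the red points lie between −0.38 and 0.10.

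To compare the agents, the ML60218 log2 fold change was subtracted from that of siPOLR3A within a single edgeR fit over the 12 libraries. For 7 of the 9 enzymes the siRNA effect was lower than the compound effect, and for 0 it was higher. Of 15780 genes tested for this, 50.9% were called, 26.4% lower and 24.5% higher. The difference in log2 fold change was −1.46 for CTH (SE 0.090, edgeR adjusted p 2.73e-09) and −0.94 for ASNS (SE 0.055, edgeR adjusted p 1.66e-09). ALDH1L2 differed by −0.74 and MTHFD2 by −0.67, and in both of these genes the called directions were opposite. PSPH, with opposite called directions too, differed by −0.48. PHGDH differed by −0.43 and PSAT1, higher in both comparisons, by −0.28. For CBS the difference was −0.04 (SE 0.038, edgeR adjusted p 0.416) and for SHMT2 −0.07 (SE 0.037, edgeR adjusted p 0.144). The median difference was −0.48 over the 9 enzymes and −0.02 over all genes.

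Each gene total is a sum over annotated transcripts, and the classes that carried it were described without a test, because short overlapping transcripts share reads and their assignment is an estimate. Transcripts annotated as retaining an intron, which usually make no full protein, were present for 6 of the enzymes. Their share of the summed TPM was higher, without overlap between groups, for 4 of the 6 in each comparison, ASNS, ALDH1L2, CBS and SHMT2 both times. Of tested genes with such transcripts, 14.5% were higher without overlap in siPOLR3A, 13.3% in ML60218 and 2.42% in both. For PHGDH and PSPH the groups overlapped in both.

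For ASNS the retained-intron share was 12.7, 14.9 and 12.01% in siControl and 20.3, 16.4 and 16.3% in siPOLR3A. It was 7.75, 6.93 and 8.80% in DMSO and 18.9, 18.04 and 19.6% in ML60218. For ALDH1L2 the mean share went from 13.0 ± 2.04% to 19.6 ± 1.23% with the siRNA and from 6.56 ± 1.82% to 13.5 ± 2.13% with the compound. In both genes every treated library was above every control library of its experiment. SHMT2 went from 8.25 ± 0.961% to 10.9 ± 1.80% and from 7.51 ± 0.915% to 14.3 ± 2.29%. CBS, where the class was largest, went from 35.7 ± 0.879% to 37.8 ± 1.07%, with nearest libraries at 36.57 and 36.60%, and from 29.9 ± 0.529% to 32.8 ± 1.69%. Over all genes the share was 6.66 ± 0.141% in siControl and 6.88 ± 0.126% in siPOLR3A, which overlapped, and 5.96 ± 0.0209% in DMSO and 6.48 ± 0.172% in ML60218, which did not.

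**Figure D4:**
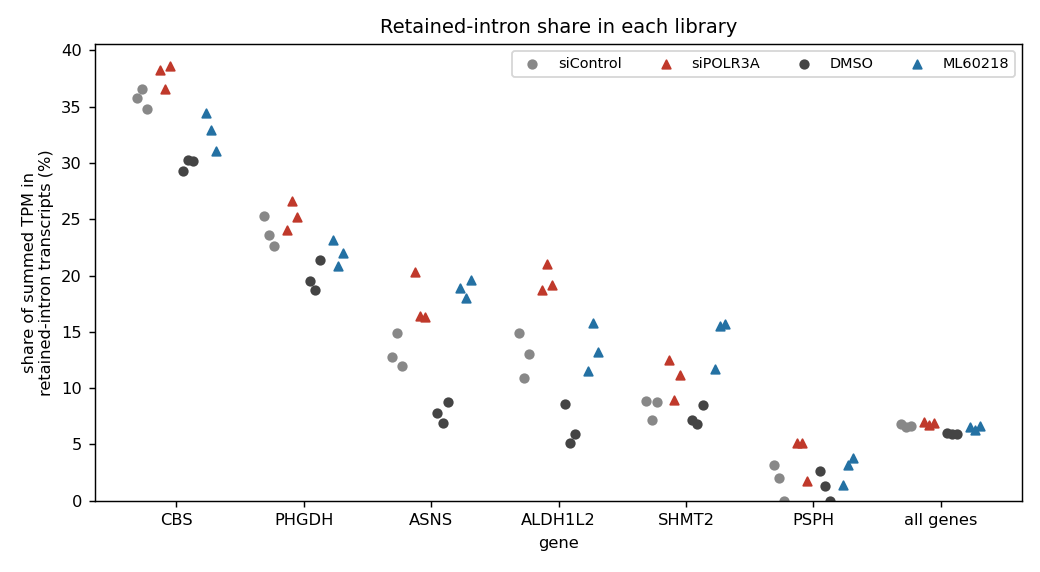
Share of a gene's summed TPM in retained-intron transcripts (%), for 6 enzymes and for all genes, with 1 point per library; circles are controls and triangles are treated libraries. ASNS is at 6.93 to 8.80% in DMSO and at 18.04 to 19.6% in ML60218. All genes together are at 5.94 to 5.98% in DMSO and at 6.30 to 6.64% in ML60218.

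Single transcripts show what lies behind the shares. The protein-coding ASNS-202 had a mean of 30.5 ± 0.946 TPM in DMSO and 72.5 ± 11.8 in ML60218, and the retained-intron ASNS-215 went from 3.05 ± 0.380 to 20.4 ± 1.47. ASNS-202 was at 43.1 ± 4.19 TPM in siControl and 44.6 ± 2.30 in siPOLR3A, while ASNS-215 was at 7.51 ± 0.517 and 11.2 ± 2.44. The rise of ASNS in ML60218 was thus present in its main coding transcript, whereas the coding transcript overlapped between the siRNA groups.

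For CTH, the coding CTH-202 went from 10.7 ± 0.287 TPM in DMSO to 29.2 ± 3.67 in ML60218, and the short noncoding CTH-205 from 1.35 ± 0.387 to 7.16 ± 1.27. SHMT2-201, its main coding transcript, went from 95.2 ± 3.46 to 107.9 ± 5.07 TPM, and the retained-intron SHMT2-204 from 4.06 ± 1.04 to 15.1 ± 4.46. Both kinds of transcript were higher in TPM for these genes, the noncoding ones by more. The TPM scale itself ran higher in ML60218, with an all-gene median of 0.11 on log2(TPM + 1) against 0.0054 on counts. On counts of protein-coding transcripts alone, SHMT2 was at 0.09 and not called. CBS-204, its main coding transcript, was at 107 ± 2.84 TPM in siControl and 88.7 ± 3.43 in siPOLR3A, without overlap, though the CBS total was not called. PHGDH-208, its main coding transcript, was at 210.1 ± 3.67 TPM in siControl and 157.9 ± 3.51 in siPOLR3A. PSAT1 had protein-coding transcripts only, so its total has no such mixture.

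Across the 8 enzymes with more than 1 class, the protein-coding share was lower without overlap for 4 in siPOLR3A (ALDH1L2, CBS, PHGDH and SHMT2) and higher for 1 (MTHFD2). In ML60218 it was lower for 6 (ALDH1L2, ASNS, CBS, CTH, PHGDH and SHMT2). Of tested genes with a mixture of classes, 14.6% were lower and 7.85% higher without overlap in siPOLR3A, and 14.2% were lower in ML60218. Over all genes the protein-coding share was 85.6 ± 0.263% in siControl, 85.1 ± 0.179% in siPOLR3A, 86.4 ± 0.013% in DMSO and 85.3 ± 0.486% in ML60218, lower without overlap in both experiments. Its part in the changes of the gene totals was tested only by refitting protein-coding transcripts alone, where SHMT2 in ML60218 was at 0.09 and no longer called.

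Near copies and overlapping genes bear on which reads belong to an enzyme. The ASNS pseudogene ASNSP1 reached 4.49 TPM in 1 library, and 15 other pseudogene copies of ASNS, MTHFD2, PSAT1 and PSPH stayed at or below 0.773 TPM. CBSL, a near-identical copy of CBS, had no matched transcript, so its reads and those of CBS may not be separable. ALDH1L2 overlaps C12orf45 on the other strand, which averaged 18.5 TPM, and whether strand was used in the quantification is not given in the sources used here.

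The closest relatives by name did not all follow the enzymes. SHMT1, the cytosolic counterpart of SHMT2, was at 16.4, 15.2 and 15.6 CPM in siControl and 39.8, 42.9 and 13.7 in siPOLR3A. It was at 46.1, 12.3 and 34.2 CPM in DMSO and 33.1, 13.2 and 13.6 in ML60218. Libraries of 1 group differed by severalfold for this gene, and neither comparison called it, at 1.03 (SE 0.49) and −0.63 (SE 0.68). MTHFD2L, a mitochondrial relative of MTHFD2, was at 0.03 and −0.14 and called in neither comparison. The cytosolic MTHFD1 was at −0.04 and −0.10, not called, but 19 unmatched transcripts lie between its matched ones, and its mean in siControl was 41.5 TPM without them and 181 with them. With them MTHFD1 was called lower in siPOLR3A, at −0.13 (edgeR adjusted p 3.97e-05), and was at −0.04 in ML60218, not called. ALDH1L1, the cytosolic counterpart of ALDH1L2, fell by 0.71 with the siRNA (edgeR adjusted p 0.000201) and rose by 0.37 with ML60218 (edgeR adjusted p 0.021), the directions of ALDH1L2. PCK1, the cytosolic relative of PCK2, was low, at 1.17 ± 0.0921 CPM in DMSO and 2.79 ± 0.530 in ML60218, a log2 fold change of 1.25 (edgeR adjusted p 0.000718), and at 0.09 with the siRNA, not called. ATF4 mRNA was at 0.18 with the siRNA (edgeR adjusted p 0.00406) and 0.14 with ML60218 (edgeR adjusted p 0.257). With unmatched neighbouring transcripts added, ATF4 turned to −0.23 with the siRNA (edgeR adjusted p 0.000306) and was called higher with ML60218, at 0.36 (edgeR adjusted p 0.000163), so its direction with the siRNA is not settled here. ATF4 is regulated largely through translation, which these libraries do not measure.

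Other genes of the same pathways were taken as 5 lists of 94 genes, with none of the 10 enzymes among them. Lists and enzymes were chosen with earlier results known, so a contrast between them is not independent of these data. Of these, 92 had a matched transcript and 85 were tested in each comparison. In ML60218, 14 were called higher and 24 lower, with a median log2 fold change of −0.06, beside 18.1% and 20.9% of all genes. In siPOLR3A, 17 were called higher and 34 lower, with a median of −0.04, beside 27.4% and 29.2%. The plot by list shows the values of each gene.

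Among genes of serine and glycine metabolism, ML60218 was called higher for 4 and lower for 2 of 13, and siPOLR3A higher for 2 and lower for 4 of 12. SRR, which makes D-serine, was at 0.36 with ML60218 and −0.72 with the siRNA, both called. GLDC, the decarboxylase of the glycine cleavage system, averaged 87.1 ± 4.30 CPM in siControl and 44.9 ± 0.635 in siPOLR3A, and so fell by 0.96 on the log2 scale. The lipoyl carrier of that system, GCSH, fell by 0.27 with ML60218, and so did the mitochondrial serine transporter SFXN1, by 0.26. Its relative SFXN2 rose by 0.32 with the siRNA.

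In the folate cycle, 3 genes were called higher and 6 lower of 17 with ML60218, and 3 higher and 8 lower of 17 with the siRNA. The folate carrier SLC19A1 rose with the siRNA by 1.20 on the log2 scale, and DHFR2 fell by 0.47. Among genes with a mean log2 CPM of 3 or more, called changes with ML60218 ran from −0.45 for MTHFS to 0.25 for DHFR2. GGH was at −0.32 and MTHFD1L at 0.18. The less abundant ALDH1L1 was called higher with ML60218, at 0.37.

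In the methionine cycle and cysteine use, 2 were called higher and 2 lower of 21 with ML60218, with GSS, the glutathione synthetase, at 0.28 and KYAT3 at 0.12. MAT2A, which makes S-adenosylmethionine, fell by 0.35 and CDO1 by 0.23. With the siRNA 2 were higher and 6 lower of 22. MAT2B rose by 0.41 and MPST by 0.15, while GCLM, a subunit of the enzyme that starts glutathione synthesis, fell by 0.59 and the methionine synthase MTR by 0.58.

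In the synthesis of other amino acids, 3 were called higher and 7 lower of 20 with ML60218, with the alanine transaminase GPT2 at 0.53 and BCAT1 at 0.28 and OAT at −0.20. With the siRNA 8 were higher and 6 lower of 20. Glutamine synthetase, GLUL, rose by 0.58 and GPT2 by 0.26, while the proline synthesis genes PYCR1 and ALDH18A1 fell by 0.70 and 0.57. Around phosphoenolpyruvate and pyruvate, 2 were higher and 7 lower of 14 with ML60218, with PGAM1 at −0.34 and MPC1 at −0.24. With the siRNA 2 were higher and 10 lower of 14, with pyruvate carboxylase, PC, at −0.67, ENO2 at −0.52, ME1 at 0.18 and ENO1 at 0.10.

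**Figure D5:**
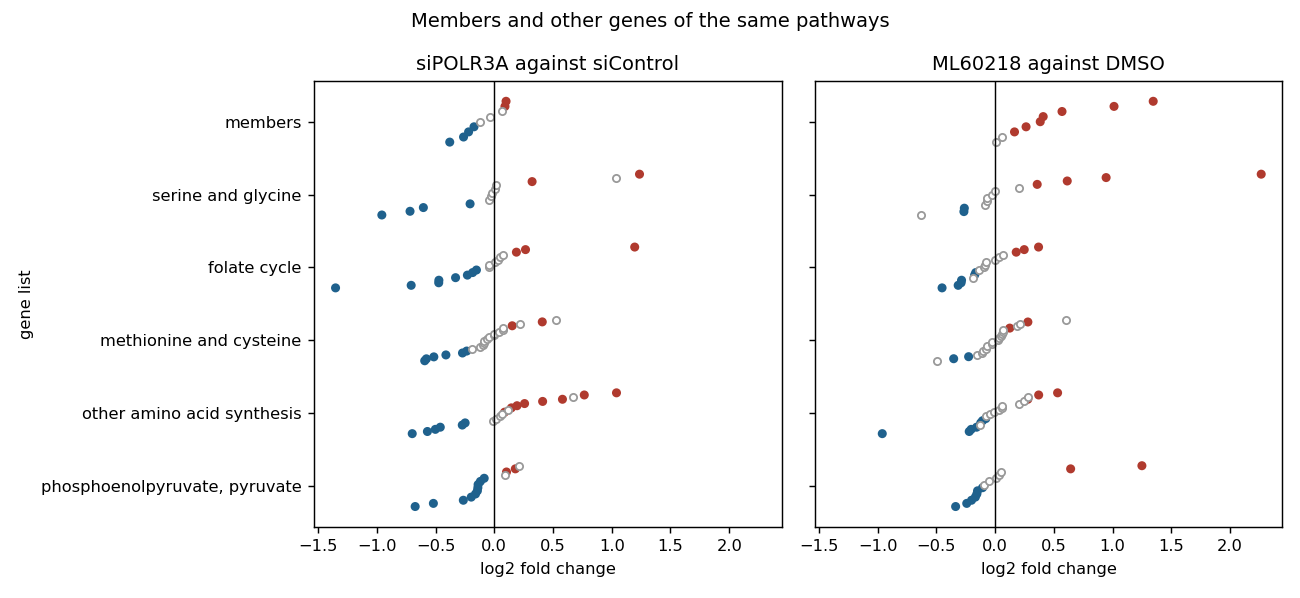
Log2 fold change of the 9 enzymes (row labelled members) and of the tested genes of 5 pathway lists in each comparison; red and blue points were called higher and lower, and open points were not called. In ML60218 the enzymes lie between 0.0085 and 1.35, while the median of the lists together is −0.06.

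The enzymes varied in how alike they were across the 12 libraries, each centred on the control mean of its experiment. Pearson's r with the mean of the other enzymes was 0.99 for ALDH1L2, 0.98 for CTH, 0.95 for both ASNS and MTHFD2, 0.88 for PSPH and 0.86 for PSAT1. It was 0.67 for SHMT2, 0.55 for PHGDH and 0.35 for CBS. These values are descriptions over libraries that fall into 4 groups, in which the ML60218 libraries stand apart for most of these genes.

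Of 10285 other protein-coding genes, 5 came closest to the mean of the enzymes, with r from 0.988 to 0.993. DNAJC16, a J-domain protein, was at −0.07 with the siRNA and 0.31 with ML60218. LRRC8D, a subunit of volume-regulated anion channels, was at −0.20 and 1.48. SLC38A2, an importer of neutral amino acids, was at −0.13 and 0.58. RPS6KL1, a kinase-like protein, was at −0.25 and 0.78, and INTS12, a subunit of Integrator, at −0.08 and 0.29. All 5 were called higher in ML60218, which follows from the way they were picked, and LRRC8D, SLC38A2 and RPS6KL1 were called lower in siPOLR3A.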

How the data were processed

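Messenger RNA was sequenced in 12 libraries of HEK293T cells with a stranded kit, per the labels' protocols. The deposited table gave, for each of 194142 transcripts, an estimated count and a TPM value per library, with the column names that salmon writes, per the file headers. Per the submitters' processing notes, bcl2fastq 2.20, Trim Galore, DESeq2 and hg38 were used. The quantifier's version, settings and annotation are not given in the sources used here.

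Transcripts were matched by unversioned identifier to GENCODE release 29: 158359 (81.6%) matched, holding 91.0% to 91.6% of a library's reads. The design had assumed counts per gene. Deposited estimated counts were therefore summed per gene and rounded, and deposited TPM summed. edgeR 4.0.16 in R 4.3.3 tested each comparison on its own 6 libraries (filterByExpr, minimum count 10 and total 15, TMM factors, robust quasi-likelihood, two-sided) and the difference on all 12, with Benjamini-Hochberg adjustment over all genes at 0.05. With 3 against 3, an exact permutation test of 1 gene cannot give a p below 0.1. The SE is the fold change divided by the square root of F. The script was tested on simulated data.

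Named in the text were all the enzymes, relatives by symbol, the largest 2 called changes of each pathway list in each direction (mean log2 CPM 3 or more), and the 5 genes with the highest r; some items that this rule takes are not reported here. The single transcripts, ATF4 and the overlapping gene were chosen after their values were seen. The enzymes and lists were chosen with earlier results of these data known. Alternatives used other scalings, DESeq2 1.42.0, limma 3.58.1 on log2(TPM + 1) or (TPM + 0.1), no filter, a replicate block, each library left out, unmatched neighbouring transcripts, a length offset, and 1 fit of all libraries. Restriction to protein-coding transcripts and removal of a GC and length trend were added after seeing the data.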

Additional observations from a re-analysis of the deposited data

Results flagged for a closer look

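For 7 of the 9 enzymes the siRNA and the compound had different effects by the edgeR test of the difference itself. The siPOLR3A effect minus the ML60218 effect, on the log2 scale, was −1.46 for CTH (edgeR adjusted p 2.73e-09), −0.94 for ASNS (1.66e-09), −0.74 for ALDH1L2 (2.1e-08) and −0.67 for MTHFD2 (2.56e-09). It was −0.48 for PSPH (edgeR adjusted p 7.58e-05), −0.43 for PHGDH (3.24e-07) and −0.28 for PSAT1 (0.000376). All 3 siPOLR3A libraries were below all siControl libraries for ALDH1L2, MTHFD2, PSPH and PHGDH, and all 3 ML60218 libraries were above all DMSO libraries for these enzymes other than PHGDH. Over all genes, 50.9% were called for this difference, so such a call is common in these data. The agent, vehicle and duration of the experiments differ together and cannot be told apart.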

How the results depend on the processing

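For the 9 enzymes, 151 of 171 alternative values kept their direction and side of the threshold in the siRNA comparison, 158 of 171 in the ML60218 comparison and 207 of 216 for the difference. The rises of ASNS, CTH, ALDH1L2, MTHFD2, PSAT1 and PSPH in ML60218 and the falls of PHGDH, MTHFD2 and PSPH in siPOLR3A did so in all 19. Direction turned for CBS in siPOLR3A: 0.022 with upper quartile scaling, 0.013 with total counts, 0.064 with the length offset, 0.0780 on log2(TPM + 1) and 0.0783 on log2(TPM + 0.1). It turned for CBS in ML60218: −0.00089 without DMSO replicate 1, −0.0104 without ML60218 replicate 1, out of a range up to 0.0299 with 1 library left out, and −0.14 with protein-coding transcripts only. It turned for the SHMT2 difference, 0.0078 with protein-coding transcripts only. The cause was not tested. Leaving out 1 library gave 1 to 2 enzymes called higher in siPOLR3A, and protein-coding transcripts only gave 1 called lower in ML60218 (CBS). Of called genes, 48.4% were higher in siPOLR3A, and 58.7% with upper quartile scaling. In ML60218 it was 46.4%, against 67.0% with total counts, 58.6% under the upper quartile and 82.2% on log2(TPM + 1). Replicate numbers did not pair the libraries (same-number r −0.09 to −0.01 in both experiments), and the replicate block gave 8493 genes called in siPOLR3A, 5393 in ML60218 and 7658 for the difference. Adding CBSL to CBS was not run, since CBSL had no matched transcript. Intervals of small changes are limited by 3 libraries a group.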
